A study of Mus musculus with 28 samples.

Results

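The sarcomeric myosin chains of mouse dorsal skin were followed across 4 groups of arrays. The genes are Myh8, Myh4, Myh3, Myh1, Myh2 and Myh7, which encode heavy chains, and Myl1, Mylpf and Myl4, which encode light chains. A probe was taken where the platform annotation gives 1 of these 9 symbols, which found 10 probes of 7 genes among 25697 probes on the array. Myh3 and Myh2, the embryonic and a fast heavy chain, were matched by no probe under that rule and were not analysed here. Of the 10 probes, 8 probes of 6 genes entered the tests, among 9045 genes tested, and a probe was tested where it was detected on at least 6 arrays. RNA of whole dorsal skin was labelled and read on Illumina BeadChips, where beads that carry 1 probe give its signal together. The 28 arrays held 6 P15 mutants, 6 P15 controls, 6 P10 mutants and 10 P10 controls, where P15 and P10 stand for mice 15 and 10 days old. Mutants were K14-cre;Gab1fl: a Cre recombinase under the keratin 14 promoter, at work in basal keratinocytes, together with a conditional allele of Gab1, an adaptor of receptor tyrosine kinases. All 4 groups were of a mixed C57/BL6;129Ola background, and the sources used here do not give the alleles that control mice carried. K14-cre is not known for activity in skeletal muscle, and skin pieces were not split by tissue layer according to the labels, so muscle RNA comes with the whole piece.

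A sarcomeric myosin is a hexamer of a pair of heavy chains, which hold the motor, and of essential and regulatory light chains that stiffen the lever arm. Skeletal muscle of rodents changes its heavy chains around and after birth: embryonic Myh3 and perinatal Myh8 give way to the adult fast chains Myh2, Myh1 and Myh4 and, in slow fibres, Myh7. In mouse dorsal skin the striated muscle is a thin sheet under the fat, the panniculus carnosus.

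The number of arrays limits the precision of every value below, and no label says whether replicates are different mice, so the p-values cover only the spread among these arrays, which may be technical. Arrays lay on 4 slides: P15 arrays and 4 P10 controls on slides 3 and 4, P10 mutants and 6 P10 controls on slides 1 and 2. On each slide mutants took positions A to C and controls of their age D to F, with the 4 other P10 controls at G and H, so genotype and position cannot be told apart. Between 8836 and 13610 probes were detected per array, the fewest on P15 mutant 5. The Gab1 probe, which checks the labels, gave log2 signals of 9.91 to 10.54 in P15 mutants and 11.29 to 11.85 in P15 controls, and of 9.85 to 10.17 in P10 mutants and 11.01 to 11.64 in P10 controls. Of the skeletal muscle markers with a probe, Acta1, Ckm, Tnnt3, Ttn and Actn3, each was detected on 22 or more of 28 arrays. Of the heart markers, Myh6, Myl7, Nppa and Tnni3 were detected on 0 arrays and Nppb on 2, while Myl4, which also stood in that list, was detected on 28.

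Muscle content differed between pieces of skin, also within a group. It was followed by a muscle reference score, the mean log2 signal of 9 tested genes of the sarcomere and triad that hold no myosin (Acta1, Actn2, Ldb3, Myom1, Myot, Ryr1, Tcap, Tpm2 and Ttn), centred over the arrays. The score had a median of -0.39 in P15 mutants (lowest -2.04, highest 1.68), -1.17 in P15 controls (-1.68 to 0.53), 1.32 in P10 mutants (0.55 to 1.57) and -0.18 in P10 controls (-0.53 to 1.61). On a log2 scale a step of 1 is a doubling, so the P15 mutant pieces spanned a wide range: replicates 1 to 3, on slide 4, lay between 0.10 and 1.68, and replicates 4 to 6, on slide 3, between -2.04 and -0.87. A pair of control arrays stood apart from their groups, P15 control 2 at 0.53 and P10 control 7 at 1.61. Each comparison below is given as fitted over the arrays and again at equal muscle score, with the score as a term. Each gene has 1 slope on the score, shared by the 4 groups. Of the P15 controls only replicate 2 had a score within the P10 control range, and of the P15 mutants only replicate 2 within the P10 mutant range. The age comparisons at equal score therefore extend that slope over scores that both ages do not share. In these bulk samples fewer muscle cells and less RNA per muscle cell cannot be told apart.

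The heavy chain genes Myh2, Myh1, Myh4 and Myh8 follow each other on the plus strand of chromosome 11, and RefSeq (GRCm38.p6) gave a window around the start of each of the 9 genes. Runs of at least 10 bases common to the windows of Myh8, Myh4 and Myh1 were searched, and 2 were found. They are shown because the perinatal and the fast genes share them upstream of the start. The capitals below mark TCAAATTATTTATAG, which occurs on either strand in 3 of 32851 RefSeq start windows, and TTCTAATTATATCC, which occurs in 4 of them. The 2 do not overlap.
Myh8, chr11:67277012-67277091: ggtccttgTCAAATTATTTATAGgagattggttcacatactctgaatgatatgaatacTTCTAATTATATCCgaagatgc
Myh4, chr11:67237617-67237675: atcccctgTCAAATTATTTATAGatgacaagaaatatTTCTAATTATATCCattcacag
Myh1, chr11:67199878-67199963: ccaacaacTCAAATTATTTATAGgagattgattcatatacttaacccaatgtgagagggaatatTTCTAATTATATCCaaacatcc
Myh2, chr11:67170838-67170923: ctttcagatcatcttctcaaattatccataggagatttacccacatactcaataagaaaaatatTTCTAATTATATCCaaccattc
The 15-base stretch is found in Myh8, Myh4 and Myh1, where it begins 104, 187 and 216 bases before the start, and the 14-base stretch in these and Myh2, where it begins 54, 158, 160 and 125 bases before it. Myh3, Myh7 and the light chain genes hold neither in their windows. The match is of letters only, and nothing about a factor that binds there was measured.

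Myh8, the perinatal heavy chain, was high at P10 and low at P15 in both genotypes. Its log2 signal at P15 was 10.86, 9.16, 8.48, 6.01, 4.64 and 6.10 in mutants 1 to 6, against 12.62 to 13.71 with a median of 13.14 in the 6 P10 mutants. In controls it was 5.90, 8.72, 5.05, 5.77, 5.66 and 5.73 in P15 replicates 1 to 6, against 10.34 to 13.72 with a median of 11.27 in the 10 P10 replicates. The ages did not overlap within either genotype, and the probe was detected on 3 of 6 P15 mutants, 1 of 6 P15 controls and every P10 array. The detected P15 mutants were the 3 of slide 4, and the detected P15 control was replicate 2.

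With the slide as a term Myh8 fell by 5.13 on the log2 scale in P15 against P10 controls (SE 0.74, limma adjusted p = 2.48e-05), in 6 of 6 P15 controls. That is 35.1-fold (95% interval 12.2 to 100.5), or 24.4-fold when arrays without detection are set at the lowest signal of any detected probe on that array. On slide 3 alone the difference was -5.73 (limma adjusted p = 0.00151) and on slide 4 alone -4.53 (limma adjusted p = 0.0396). Without P15 control 2 and P10 control 7 it was -5.51. In mutants Myh8 fell by 5.19 (SE 0.99, limma adjusted p = 0.000815), in 6 of 6 P15 mutants, which is 27.3-fold with the same setting for undetected arrays. No slide holds mutants of both ages, so the mutant age difference rests on the P10 controls that stand on every slide.

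**Figure D1:**
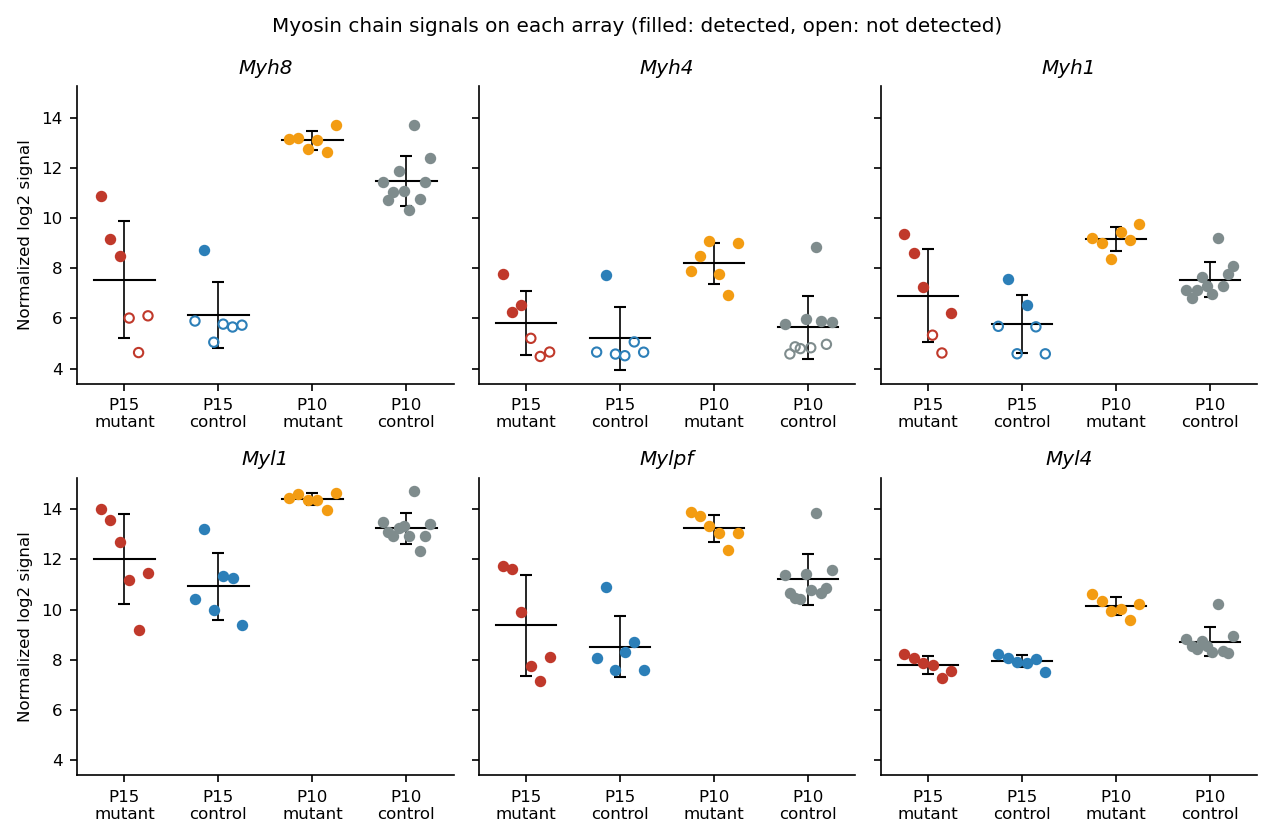
Normalized log2 signal of 6 myosin chain genes on each array, by group; filled points were detected, open points were not, horizontal bars are group means and error bars are 1 SD. Myh8 lies between 4.64 and 10.86 at P15 and between 10.34 and 13.72 at P10, while Myh4 in P15 controls (4.51 to 7.73) overlaps the range of P10 controls (4.58 to 8.84).

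Myh8 was also lower at P15 with the muscle reference score in the fit. At equal muscle score Myh8 was 14.8-fold lower in P15 than in P10 controls (log2 difference -3.88, SE 0.22, limma adjusted p = 1.18e-11). It was 9.46-fold lower in P15 than in P10 mutants (log2 difference -3.24, SE 0.30, limma adjusted p = 2.37e-07). Most P15 arrays gave only a bound for Myh8, and with undetected arrays set at the lowest detected signal, as above, these folds were 9.54 in mutants and 12.5 in controls. All P15 controls but replicate 2 had scores of -1.68 to -0.81, below every P10 control. The fold in controls therefore rests on the shared slope, 1.61 for Myh8, and its SE does not cover that step. P15 control 2, at a score of 0.53, had a Myh8 signal of 8.72, below all 10 P10 controls, although 9 of these had a lower score (-0.53 to 0.29). P15 mutants 1 and 2, at scores of 1.68 and 1.01, had Myh8 signals of 10.86 and 9.16, against 12.74 to 13.71 in the 5 P10 mutants with scores between 1.04 and 1.57. The score itself held genes that moved with age: in controls, 3 of its 9 genes were lower and 2 higher at equal score. Of them Acta1, skeletal alpha actin, differed by -1.15 (limma adjusted p = 0.00153) and titin (Ttn) by -0.80 (limma adjusted p = 0.00608).

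A second Myh8 probe was also lower at P15. Its log2 signal had a median of 5.96 in P15 mutants, 5.21 in P15 controls, 10.85 in P10 mutants and 8.74 in P10 controls. It fell by 3.00 in P15 against P10 controls (SE 0.55, limma adjusted p = 0.000388) and the difference between P15 and P10 mutants was -3.99 (SE 0.74, limma adjusted p = 0.000695). It was detected on the same numbers of arrays as the first, 3, 1, 6 and 10 in these groups, so the sizes of the falls of the 2 probes cannot be ranked. With undetected arrays set as above its differences were -3.27 in mutants and -2.13 in controls.

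Myh4, the heavy chain of the fastest mouse fibres (type IIb), did not pass the test between the ages. Its log2 signal was 7.77, 6.26, 6.55, 5.21, 4.48 and 4.66 in P15 mutants 1 to 6, against 6.93 to 9.09 with a median of 8.19 in P10 mutants. In controls it was 4.66, 7.73, 4.58, 4.51, 5.06 and 4.65 in P15 replicates 1 to 6, against 4.58 to 5.99 in 9 P10 controls and 8.84 in P10 control 7. The control groups overlapped, and the probe was detected on 3 of 6 P15 mutants, 1 of 6 P15 controls, 6 of 6 P10 mutants and 5 of 10 P10 controls. Signals that were not detected give only a bound on the level.

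In P15 against P10 controls Myh4 differed by 0.19 (SE 0.61, 95% interval -1.07 to 1.45, limma adjusted p = 0.863), and without P15 control 2 by -0.23 (limma adjusted p = 0.827). At equal muscle score the difference was 1.05 (SE 0.40, 95% interval 0.23 to 1.86, limma adjusted p = 0.065), so a higher Myh4 signal at P15 did not pass the test. It passed without any 1 of P15 mutants 2 and 5 and P15 control 4 (1.11 to 1.28), under median scaling (1.08, limma adjusted p = 0.0289) and with a second muscle reference (1.28, limma adjusted p = 0.0104). Without P15 control 2 it was 0.75 (limma adjusted p = 0.211). In mutants the age difference was -1.31 (95% interval -3.00 to 0.37, limma adjusted p = 0.305), and 0.02 (95% interval -1.09 to 1.14, limma adjusted p = 0.986) at equal score. With undetected arrays set at the lowest detected signal the age difference of Myh4 was -1.12 in mutants and 0.50 in controls, and at equal score -0.43 and 0.94.

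The 2 heavy chains were also set against each other within each array, which sets the signals of 1 piece side by side. These differences hold 2 probes of unlike brightness, so only their change between groups can be read. Myh8 minus Myh4 was 3.09, 2.91 and 1.93 on the 3 P15 mutants on which both were detected and 0.99 on the 1 such P15 control. It was 3.65 to 5.68 on the 6 P10 mutants and 4.84, 4.89, 5.10, 5.66 and 6.52 on the 5 P10 controls with both. No P15 value reached the P10 values, and on the other arrays at least 1 of the probes was not detected. Over all arrays it averaged 1.72 ± 1.16 in P15 mutants (SD, n = 6) and 0.94 ± 0.33 in P15 controls (n = 6), against 4.90 ± 0.72 in P10 mutants (n = 6) and 5.84 ± 0.76 in P10 controls (n = 10), given as a description with no test. These averages include arrays on which 1 or both probes were not detected. There the value holds background signal, so the averages are not read as sizes.

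**Figure D2:**
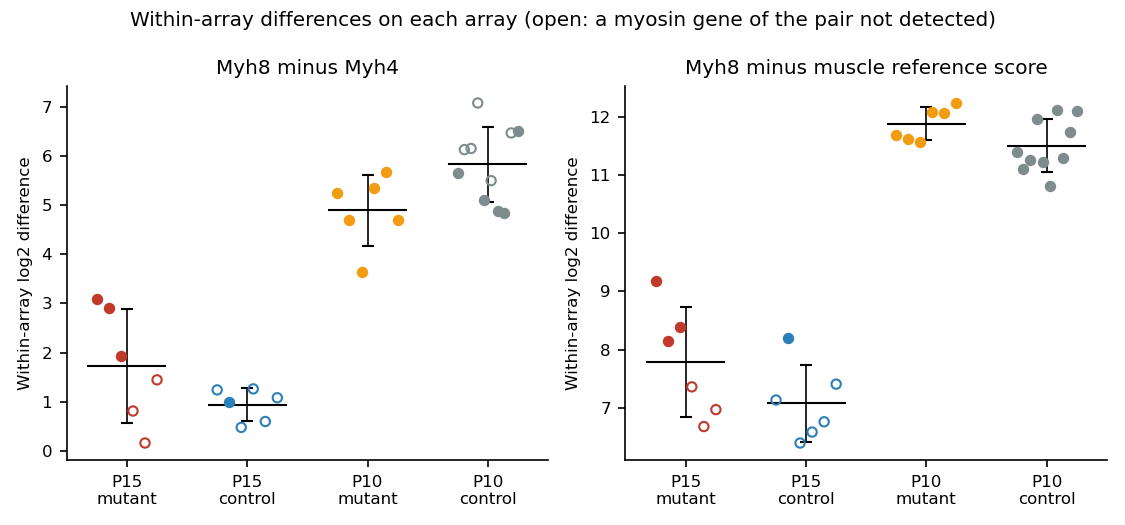
Within-array log2 differences on each array, by group: Myh8 minus Myh4 (left) and Myh8 minus the muscle reference score (right); open points are arrays on which Myh8 or, on the left, Myh4 was not detected, bars are means and error bars 1 SD. Myh8 minus the score lies between 6.40 and 9.18 at P15 and between 10.81 and 12.24 at P10, with no overlap.

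Myh1, the heavy chain of fast IIx fibres, moved with the muscle reference score. Its log2 signal had a median of 6.74 in P15 mutants (4.62 to 9.37), 5.67 in P15 controls (4.59 to 7.58), 9.16 in P10 mutants (8.37 to 9.77) and 7.30 in P10 controls (6.80 to 9.19). The P15 and P10 groups overlapped within both genotypes, and detection held on 4 of 6, 2 of 6, 6 of 6 and 10 of 10 arrays in the order given. The difference between P15 and P10 controls was -1.41 (SE 0.61, limma adjusted p = 0.101) and, at equal score, -0.38 (95% interval -0.78 to 0.02, limma adjusted p = 0.169). It was -1.68 (limma adjusted p = 0.0460) without P15 control 2 and P10 control 7, which passes. Between P15 and P10 mutants the difference was -1.67 (limma adjusted p = 0.188) and, at equal score, -0.05 (95% interval -0.59 to 0.49, limma adjusted p = 0.923). With undetected arrays set at the lowest detected signal the Myh1 difference was -1.13 in mutants and -0.65 in controls, which is 1.57-fold in controls, and at equal score -0.11 and 0.0018. A second Myh1 probe was detected on 4 of 6 P10 mutants and on 0 of the other 22 arrays and was not tested.

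The slow heavy chain Myh7, which is also the heavy chain of the adult heart's ventricle in large mammals, was not detected on any of 28 arrays. Its log2 signals, 4.53 to 5.65, lie in the range of undetected probes, so no level is given. Among the 3 heavy chains tested, Myh8 fell with age past the test, and Myh4 and Myh1 did not pass.

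Among light chains, Myl1, the essential chain of fast fibres, was detected on every array by the probe that stood for it. Its log2 signal had a median of 12.08 in P15 mutants (9.19 in mutant 5, and 13.55 or more in mutants 1 and 2), 10.84 in P15 controls (9.37 to 13.20), 14.42 in P10 mutants (13.97 to 14.64) and 13.17 in P10 controls (12.34 to 14.72). P15 mutant 1 and P15 control 2 reached into the range of their P10 groups, and all other P15 arrays but mutants 2 and 3 lay below every P10 array. Myl1 fell by 2.26 in P15 against P10 controls (SE 0.59, limma adjusted p = 0.00696), in 6 of 6 P15 controls, and by 1.31 at equal score (SE 0.24, limma adjusted p = 0.000515). The first call ended on slide 3 alone (-2.43, limma adjusted p = 0.126) and on slide 4 alone (-2.10, limma adjusted p = 0.153). In mutants the age difference was -2.30 (limma adjusted p = 0.0555), which passed without any 1 of P15 mutants 1 and 2, P15 controls 2 and 3 and P10 controls 2 and 7 (-2.58 to -2.30), and -0.81 (95% interval -1.50 to -0.12, limma adjusted p = 0.131) at equal score. A second Myl1 probe gave -1.36 in controls (limma adjusted p = 0.0799) and -2.46 in mutants (limma adjusted p = 0.0315), so the probes differ on which genotype passed. That second probe was detected on only 2 of 6 P15 mutants and 1 of 6 P15 controls. With undetected arrays set at the lowest detected signal its differences were -1.62 in mutants and -0.17 in controls, so its sizes are bounds. With the same setting at equal score they were -0.86 in mutants and 0.32 in controls. The fall of Myl1 in controls at equal score therefore rests on the probe that stood for the gene.

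Mylpf, the regulatory light chain of fast fibres, fell with age in both genotypes. Its log2 signal had a median of 8.99 in P15 mutants (7.15 to 11.74), 8.18 in P15 controls (7.59 to 10.89), 13.20 in P10 mutants (12.38 to 13.89) and 10.82 in P10 controls (10.40 to 13.86). The mutant ages did not overlap, and of the P15 controls only replicate 2 lay within the P10 control range. Mylpf fell by 2.20 in controls (SE 0.62, limma adjusted p = 0.0121), and the difference in mutants was -3.06 (SE 0.83, limma adjusted p = 0.0157), in 6 of 6 P15 arrays each. On slide 3 alone the control difference was -2.23 (limma adjusted p = 0.0204) and on slide 4 alone -2.16 (limma adjusted p = 0.177). At equal score it fell by 1.16 in controls (SE 0.19, limma adjusted p = 0.000176) and by 1.44 in mutants (SE 0.26, limma adjusted p = 0.000769). That mutant call ended under median scaling (-0.99, limma adjusted p = 0.0597) and with the second muscle reference (-0.85, limma adjusted p = 0.0542).

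Myl4, the essential light chain of atrial and embryonic striated muscle, was detected on every array. Its log2 signal had a median of 7.84 in P15 mutants (7.25 to 8.25), 7.96 in P15 controls (7.52 to 8.24), 10.12 in P10 mutants (9.60 to 10.63) and 8.54 in P10 controls (8.26 to 10.22). All P15 arrays, the muscle-rich ones included, lay below all P10 arrays. Myl4 fell by 2.20 in P15 against P10 mutants (SE 0.33, limma adjusted p = 6.41e-05) and by 0.71 in P15 against P10 controls (SE 0.25, limma adjusted p = 0.0425). The control call was a narrow one: it ended on slides 3 and 4 taken alone and without any 1 of P15 controls 2, 3, 4 and 6 or P10 controls 1, 3 and 4, with differences between -0.80 and -0.60. It also ended with no filter on dim probes (-0.71, limma adjusted p = 0.0710) and with arrays weighted by quality (-0.71, limma adjusted p = 0.0769). At equal score Myl4 fell by 1.75 in mutants (SE 0.27, limma adjusted p = 0.000133) and differed by -0.41 in controls (limma adjusted p = 0.147). With the slope of the score fixed at 1 the mutant call ended (-0.99, limma adjusted p = 0.219). That setting subtracts the score from every tested gene, of muscle or not, which changes the spread that the test shares over genes. Its adjusted p-values therefore cannot be set beside those of the main fit, and only its differences are read.

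With age, then, 4 of 6 tested members were lower in P15 than P10 controls (Myh8, Myl1, Mylpf and Myl4), against 10.5% of all tested genes lower in that comparison. In P15 against P10 mutants 3 of 6 were lower (Myh8, Mylpf and Myl4), against 6.09% of all genes. At equal muscle score 3 of 6 were lower in controls (Myh8, Myl1 and Mylpf), beside 9.36% of all genes. For Myl1 that call was not shared by its second probe, as given above. In mutants at equal score 3 of 6 were lower (Myh8, Mylpf and Myl4), beside 4.6% of all genes. The members' median difference was -1.80 in controls and -2.25 in mutants, and -0.79 and -1.13 at equal score, beside 0.01 and 0.04, and 0.01 and 0.05, over all genes tested. No member was higher at P15 past the test in any of these 4 comparisons, with the settings named above for Myh4 as the exception. Without P15 control 2 and P10 control 7, 5 members were lower in controls and 5 in mutants, Myh1 being added in controls and Myh4 (-1.84, limma adjusted p = 0.0487) and Myl1 in mutants.

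**Figure D3:**
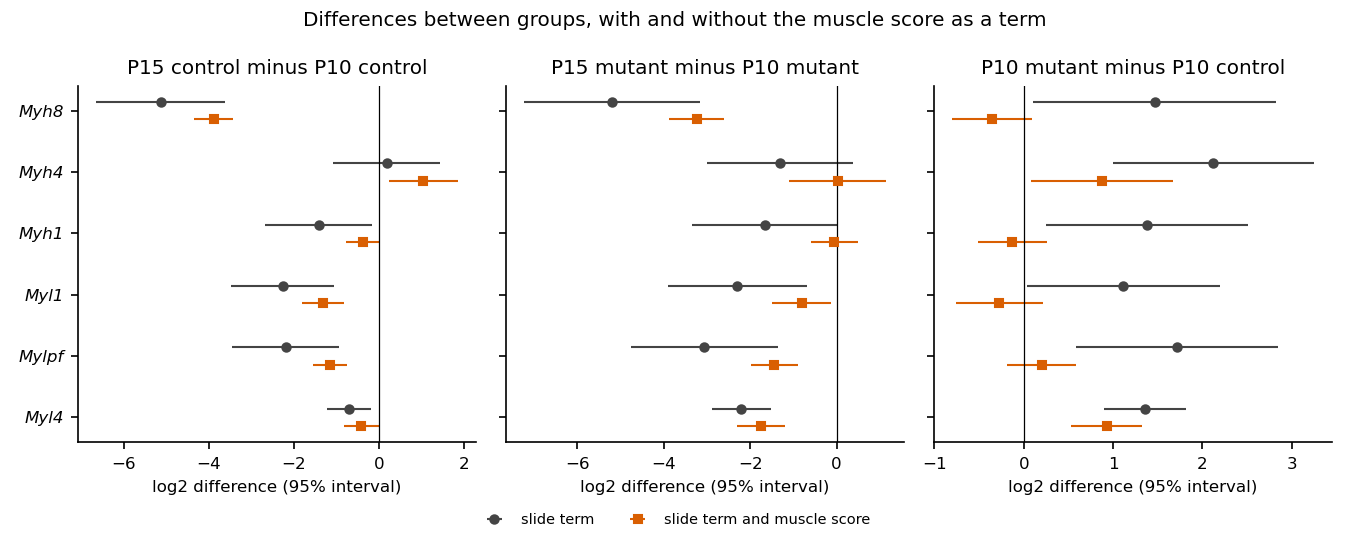
Log2 differences of the 6 tested members with 95% intervals in 3 comparisons, from the fit with a slide term (circles) and from the fit with a slide term and the muscle reference score (squares). Myh8 stays at -3.88 and -3.24 between the ages with the score in the fit, while its P10 mutant difference is 1.47 without and -0.36 with the score.

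The second comparison asked whether mutant skin differed from control skin in myosin chains at P10. All 6 members had higher signals in P10 mutants than in P10 controls, and the muscle reference genes did so too. Myh4 was 4.36-fold higher (log2 difference 2.13, SE 0.55, limma adjusted p = 0.00806), or 3.41-fold with undetected controls set at the lowest detected signal. Mylpf was 3.28-fold higher (log2 difference 1.71, SE 0.55, limma adjusted p = 0.0299) and Myl4 2.56-fold higher (log2 difference 1.36, SE 0.22, limma adjusted p = 0.000125). These 3 of 6 passed, beside 9.39% of all genes higher, and each of the 6 members was higher in 6 of 6 P10 mutants than the mean of the controls on its slide. Myh8 (1.47, limma adjusted p = 0.125), Myh1 (1.38, limma adjusted p = 0.0792) and Myl1 (1.12, limma adjusted p = 0.142) did not pass, although the second probes of Myh8 (1.60, limma adjusted p = 0.0263) and Myl1 (2.02, limma adjusted p = 0.00578) did.

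The P10 calls moved with slide and with P10 control 7, the muscle-rich array on slide 1. On slide 1 alone 0 of 6 members passed, with differences of 0.81 to 1.94, and on slide 2 alone all 6 did, with differences of 1.42 to 2.31. Among all 9045 genes, 3753 passed in either direction on slide 1 alone and 848 on slide 2 alone. Without P10 control 7, Myh8 (1.93, limma adjusted p = 0.0408) and Myh1 (1.72, limma adjusted p = 0.0307) passed too, which made 5 of 6. The Mylpf call also ended without any 1 of P10 mutants 1, 2, 4 and 6 or P10 controls 5, 6, 8 and 9, under median scaling (1.38, limma adjusted p = 0.0725) and with no filter on dim probes (1.71, limma adjusted p = 0.0615).

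At equal muscle score 1 of 6 members was higher in P10 mutants, Myl4 (log2 difference 0.93, SE 0.19, limma adjusted p = 0.00185), beside 7.87% of all genes. That call ended with the slope of the score fixed at 1 (0.22, limma adjusted p = 0.649), where the fitted slope of Myl4 was 0.37 log2 units per unit of score. As said above, the adjusted p of that setting cannot be set beside the main one. Myh8 differed by -0.36 (95% interval -0.80 to 0.09), Myh1 by -0.13 (-0.51 to 0.26), Myl1 by -0.27 (-0.76 to 0.22) and Mylpf by 0.20 (-0.19 to 0.59). With undetected arrays set at the lowest detected signal, the second probes differed by 0.83 for Myh8 and 1.29 for Myl1. The first probes then differed by 0.05 and -0.27. These values have no test, and the probes of each gene do not give the same reading at equal score. Myh4 differed by 0.87 (95% interval 0.08 to 1.67, limma adjusted p = 0.122), and by 1.32 (limma adjusted p = 0.0323) without P10 control 7, which passes. The next counts come from the fit with the slide term alone, where 9.39% of all genes were higher in P10 mutants. There Acta1 differed by 1.37 (limma adjusted p = 0.114), and 3 of the 9 muscle reference genes passed as higher in P10 mutants. Of 12 tested genes of a second muscle reference, made of energy and calcium genes of muscle, 11 were higher in P10 mutants, while of 4 smooth muscle markers 0 were higher and 1 was lower. Markers of dermis and fat were higher as well, fibroblast markers in 5 of 6 and adipocyte markers in 4 of 5 tested, while 0 of 6 keratinocyte markers passed. At equal score Acta1 differed by -0.25, and 0 of the 9 muscle reference genes and 2 of the 12 second reference genes were higher. Fibroblast markers were then higher in 4 of 6 and adipocyte markers in 2 of 5, and 0 of 4 smooth muscle markers passed. Mean log2 levels over the fibroblast markers ran from 11.61 to 12.12 in P10 mutants and from 10.68 to 11.12 in P10 controls. Their part in the myosin differences was not tested.

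**Figure D4:**
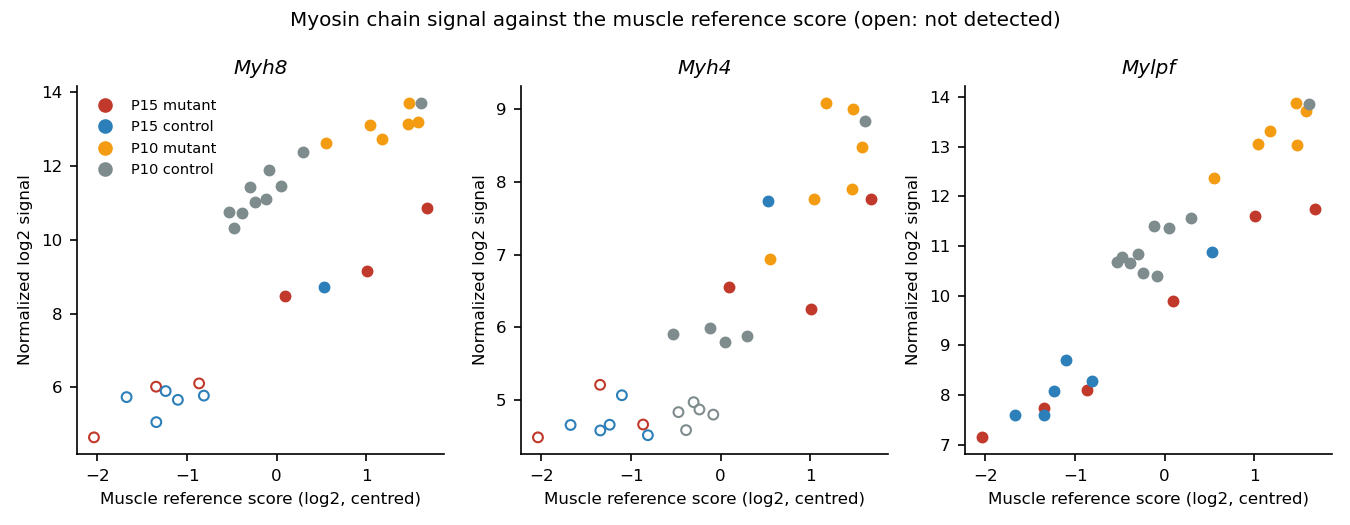
Normalized log2 signal of Myh8, Myh4 and Mylpf against the muscle reference score on each of 28 arrays, coloured by group; open points were not detected. Only P15 mutants 2 and 3 and P15 control 2 have scores within the P10 range (-0.53 to 1.61). Their Myh8 signals are 9.16, 8.48 and 8.72, against 10.34 or more on P10 arrays. P15 mutant 1 lies above that score range, and the other P15 arrays lie below it, with Myh8 not detected. The detected Myh4 signals of P15 arrays (6.26 to 7.77) are mixed with those of P10 arrays (5.79 to 9.09).

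At P15 0 of 6 members differed between mutants and controls by the limma test, against 19.6% of all genes changed in either direction, and 2 of 6 had an unadjusted p below 0.05. The differences were 1.41 for Myh8 (95% interval 0.05 to 2.76), 0.62 for Myh4 (95% interval -0.50 to 1.75), 1.13 for Myh1 (SE 0.55), 1.08 for Myl1 (0.01 to 2.16), 0.85 for Mylpf (-0.29 to 1.98) and -0.14 for Myl4 (-0.60 to 0.32). The slides were unlike: Myh8 differed by -0.13 on slide 3 and by 2.95 on slide 4, and the score of the P15 mutants was low on slide 3 and high on slide 4. Without P15 mutant 5, Myh8 (1.85, limma adjusted p = 0.0454) and Myl1 (1.55, limma adjusted p = 0.0220) passed. Without P15 control 2 and P10 control 7 the same 2 genes passed, at 1.78 and 1.43. With undetected arrays set at the lowest detected signal the P15 difference was 1.31 for Myh8, 0.15 for Myh4 and 0.90 for Myh1. At equal score 0 of 6 passed, beside 21.8% of all genes, with differences from -0.40 (Myl4) to 0.29 (Myh8) and 1 unadjusted p below 0.05.

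The mutant effect changed with age for 1 of 6 members, Myl4, beside 3.77% of all genes. Its mutant difference was 1.36 at P10 and -0.14 at P15, and the effect at P15 minus that at P10 was -1.50 (SE 0.31, limma adjusted p = 0.00728). At equal score it was -1.33 (SE 0.24, limma adjusted p = 0.00231), again for 1 of 6 members, beside 3.69% of all genes. This call ended with the slope of the score fixed at 1 (-1.06, limma adjusted p = 0.892), a setting whose adjusted p-values cannot be set beside the main ones. The other 5 members did not pass, with values between -1.50 (Myh4, limma adjusted p = 0.315) and -0.03 (Myl1). Myl4 was lower in 5 of 6 P15 mutants than the mean of the controls on its slide and higher in 6 of 6 P10 mutants.

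The other genes of muscle put these values in context. The counts below stand beside 10.5% of all genes lower in P15 than P10 controls and 6.09% lower in P15 than P10 mutants. In lists this short, a count of 1 is near those shares and is not read as a result about the list. Among fast fibre isoforms, 3 of 9 tested were lower in P15 than P10 controls and 1 of 9 in P15 than P10 mutants. The fast troponins Tnnc2 (-2.68, limma adjusted p = 0.0157), Tnnt3 (-2.18, limma adjusted p = 0.0215) and Tnni2 (-1.45, limma adjusted p = 0.0479) were those of the controls, and all 3 stayed lower at equal score. Among slow fibre isoforms, 3 of 10 were lower in controls and 4 of 10 in mutants, led by Sln, an inhibitor of the sarcoplasmic calcium pump, at -3.01 in controls. Among developmental muscle genes, 2 of 6 were lower in both genotypes. Igf2, a fetal growth factor, differed by -2.48 in controls and -3.30 in mutants, and Dlk1, a membrane protein related to Notch ligands, by -3.40 and -4.14. Which cells of the skin gave the signal of Igf2 and Dlk1 was not tested. Of the factors that drive muscle genes, 2 of 6 tested were lower in both genotypes, Mef2c (-1.09 in controls, limma adjusted p = 0.000218) and Nfix (-0.58 in controls, limma adjusted p = 0.0143), which is known to repress embryonic muscle genes in mouse fetal muscle.

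Of 3 further sarcomeric chains and myosin-binding proteins tested, 0 passed between the ages in either genotype, and 1 of 3 had an unadjusted p below 0.05 in controls and 0 of 3 in mutants. Mybpc2, the fast myosin-binding protein C, differed by -1.77 in controls (limma adjusted p = 0.0639) and the slow form Mybpc1 by -0.26 (limma adjusted p = 0.768). Of 10 tested genes in a list of smooth muscle, non-muscle and unconventional myosins and related genes, 0 passed in controls by limma. Of these, 3 of 10 had an unadjusted p below 0.05. In mutants 1 of 10 was lower, Mylk, the myosin light chain kinase and not itself a myosin (-1.09, limma adjusted p = 0.0138), beside 6.09% of all genes. There 5 of 10 had an unadjusted p below 0.05. Fibroblast markers fell with age too, 3 of 6 in controls and 6 of 6 in mutants, as did adipocyte markers, 3 of 5 and 5 of 5. The shares of all genes lower were 10.5% in controls and 6.09% in mutants. Mean log2 levels over the fibroblast markers were 9.33 to 10.62 in P15 mutants and 9.52 to 10.18 in P15 controls, below both P10 groups, and the part of these markers in the myosin differences was not tested.

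Across the 28 arrays the members differed in how closely they followed the muscle reference score. With the score, Pearson's r was 0.956 for Myh1, 0.936 for Mylpf, 0.935 for Myl1, 0.886 for Myh4, 0.835 for Myh8 and 0.798 for Myl4, described with no test, since the points share groups and slides. Myh8 and Myh4 correlated at 0.689, and at -0.20 once the score was regressed out of both. Myh8 and Mylpf kept 0.843 and Myh8 and Myl1 0.766. The 4 other genes most like Myh8 over the arrays were Igf2 (0.977), Dlk1 (0.966), Tnnc2 (0.941) and Acta1 (0.933). With the score regressed out they were Tmem132c (0.945), Fkbp11 (0.943), Thsd4 (0.941) and Lrat (0.941), 4 genes of no muscle list used here. Each of those 4 was lower at P15 in both genotypes, Lrat, a retinol esterifying enzyme, by -2.58 in controls and -1.73 in mutants. They were chosen by likeness to Myh8 over the same arrays, so their fall follows in part from that choice.

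The genes most like Myh4 were Ppp1r27 (0.921), Eno3 (0.918), Cacng1 (0.917) and Fabp3 (0.914). Eno3 is the muscle enolase, Cacng1 a subunit of the muscle calcium channel and Fabp3 a fatty acid carrier of muscle. With the score regressed out the highest were Gvin1 (0.651), Rtkn (0.640), Casq1 (0.629), with Ehbp1l1 next. None of the 4 genes most like Myh4 passed between the ages in either genotype, and all 4 were higher in P10 mutants than P10 controls, by 1.26 to 1.98. As they were chosen by likeness to Myh4 over the same arrays, these differences follow in part from that choice and are given as description only.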

How the data were processed

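Total RNA of dorsal skin from 28 samples was labelled with biotin, per the labels' protocols, and samples were grouped by the age and genotype in the labels, with slide and position from the sample descriptions. The deposited raw table holds, per the file headers, an intensity per probe and array for 25697 probes (linear and not normalized, judged from its values) with a detection p-value beside it. The submitters' processing notes name GenomeStudio, without a version. A deposited table of the authors' processed intensity values, of which no source used here tells the making, served as an alternative.

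Signals were background-corrected with normexp from the detection p-values (offset 16), made alike in distribution by quantiles and turned into log2. Probes with a detection p-value below 0.01 on at least 6 arrays (12834) were tested, and the probe with the highest mean stood for a gene (9045 genes). Symbols came from the platform annotation. Each probe was fitted with limma 3.58.1 (R 4.3.3), with 4 groups and slide as terms (21 residual degrees of freedom) and again with the muscle reference score added (20), the fit called "at equal muscle score". The threshold was an adjusted p (Benjamini-Hochberg, over all 9045 genes) below 0.05; second probes were adjusted over all tested probes. Within-array differences and correlations have no test. The fit was tested on simulated data. Named are the members, from each list up to 3 genes with the smallest p between P15 and P10 controls, and the 4 genes most correlated with Myh8 and with Myh4, with and without the score regressed out. A planned Myh3 minus Myh4 difference could not be computed. The members and lists were chosen with earlier results of these data known. Start regions are from RefSeq (GRCm38.p6). Alternatives were other scalings, filters, slide treatments, a second muscle reference, single slides and leaving out each array.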

Additional observations from a re-analysis of the deposited data

Results flagged for a closer look

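P10 control 7, on slide 1, lay far above the other P10 controls for Myh4 (8.84), Myl1 (14.72), Mylpf (13.86) and Myl4 (10.22) and for the muscle reference score (1.61). P15 control 2, on slide 4, lay far above the other P15 controls for Myh8 (8.72), Myh4 (7.73) and Mylpf (10.89). Chance gives such a gap in about 1 of 20 groups. The myosin genes of each array are not independent of one another.

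The mutant effect on Myl4 differed between the ages, by -1.50 on the log2 scale with the slide term and by -1.33 at equal muscle score. The second Myh1 probe, outside the tested data, was detected on 4 P10 mutant arrays and on 0 control arrays.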

How the results depend on the processing

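Of 45 member results, 19 passed and 0 of these changed sign under any alternative; 48 of 1681 alternative values, all of results that did not pass, did. The authors' processed values and adjustment over all tested probes moved no count of members called by over 1.5 times. Most alternatives left out 1 array each, so a change of sign was a lenient measure. Myh8 in P15 against P10 controls passed under every alternative run (-5.73 to -4.48, and -4.35 to -3.70 at equal score). Every other result that passed lost its call under at least 1 alternative.

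Counts of members that passed, in either direction, changed as follows. The cause was not tested. Without a slide term they were 6 in the mutant age comparison (3 with it) and, at equal score, 2 at P10 and 5 in the control age comparison (1 and 3 with it). With the slide as a random block the mutant age count was 5, and with arrays weighted by quality the P10 count was 6. Slide 1 alone gave 0 and slide 2 alone 6 at P10, beside 3753 and 848 of all genes. Slides 3 and 4 alone gave 2 and 1 of 4 in the control age comparison, beside 240 and 574 of all genes. Each of these fits had fewer arrays, yet slide 1 alone called more genes than the main fit (1687). Median scaling gave, at equal score, 4 at P10, 5 in the control age comparison and 2 for the change of the mutant effect (1, 3 and 1 otherwise), and Myh8 minus Myh1 within arrays moved to -0.44 between P10 mutants and controls (-0.01 otherwise). Of the members that passed at P10 under median scaling, Myh8 (-0.67, limma adjusted p = 0.0264) and Myl1 (-0.90, limma adjusted p = 0.0360) were lower in mutants. In the control age comparison Myh4 passed there as higher at P15 (1.08). The second muscle reference gave 2 at P10 at equal score, with Myh8 lower in mutants (-0.85, limma adjusted p = 0.0443). A slope of the score fixed at 1 gave 0 at P10, 1 and 1 in the control and mutant age comparisons and 0 for the change. There the score was subtracted from every gene, so these counts cannot be set beside the main ones. Without the 2 control arrays that stand apart (added after seeing the data) the counts were 5 at P10, 2 at P15, 5 in the mutant age comparison and 2 at P10 at equal score.

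Without 1 array at a time the counts ranged from 2 to 5 at P10, 0 to 2 at P15, 3 to 4 in the control age comparison, 3 to 4 in the mutant age comparison and 1 to 1 for the change. At equal score they ranged from 1 to 2, 0 to 1, 3 to 4, 3 to 3 and 1 to 1. Myh4 in the control age comparison ranged from -0.23 to 0.46, and at equal score in the mutant age comparison Myh4 ranged from -0.43 to 0.34 and Myh1 from -0.14 to 0.064.

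Signs turned for results that did not pass. Under median scaling, Myl4 at P15 was 0.0099, and at equal score Myh1 at P10 0.091, Mylpf at P10 -0.32 and Myh4 in mutant age -0.48. Without a slide term, Myh4 in control age was -0.45, and at equal score Myh1 at P10 0.13 and Myh4 in mutant age -0.69. With the slide as a random block Myh4 in control age was -0.14. On slide 3 alone, P15 mutants minus controls were -0.20 for Myh1, -0.13 for Myh8, -0.048 for Myl1 and -0.53 for Mylpf, and Myh4 in control age was -0.089. Without the 2 control arrays Myh4 in control age was -0.23, and at equal score in mutant age Myh1 was 0.048 and Myh4 -0.65. At equal score, no filter gave 0.054 for Myh1 in mutant age, the second reference -0.26 for Mylpf at P10 and 0.41 for Myh1 in mutant age. The fixed slope gave 0.25 for Myh1 and 0.33 for Myh8 at P10, 0.072 for Myl4 in control age and -0.10 for Myh4 in mutant age.

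Replicate numbers do not pair samples by the labels, and same-numbered deviations correlated between -0.21 and 0.41. With the replicate block (12 residual degrees of freedom) 0 members passed at P10, 2 in control age, 0 in mutant age and 0 for the change, and at equal score 0 at P10, 0 in mutant age and 0 for the change. With that replicate block Myh1, Myh8 and Myl1 at P10 were -0.68, -0.014 and -0.55, Myh1 in mutant age was 1.07, and at equal score in mutant age Myh1 was 0.70 and Myh4 -1.21.

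Genes that passed numbered 4086 in mutant age without a slide term (1104 with it), 3642 in control age (1976), 4301 at P10 with quality weights (1687) and 6376 at P10 at equal score with the slope fixed (1500). Signal over background limits the heavy chains: Myh8, Myh4 and Myh1 were detected on 1, 1 and 2 of 6 P15 controls.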
